A study of Mus musculus with 4 samples.

Results

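The Slc17a6 glutamatergic neurons described here were 78 cells of 4239 kept barcodes, out of 10200 barcodes in 4 single-cell libraries of the mouse bed nucleus of the stria terminalis (BNST). They were chosen by their own counts. Barcodes with fewer than 400 genes, or with more than 10% of their molecules from mitochondrial genes, were left out. A kept barcode was a neuron where Snap25, Syt1, Stmn2, Snhg11 and Meg3 together made up at least 0.6% of its molecules, which 2489 barcodes met. A neuron belonged to the class with at least 2 molecules of Slc17a6 and Slc17a7 together and at most 1 molecule of Gad1, Gad2 and Slc32a1 together. The comparison class was 2097 GABAergic neurons, which had at least 2 molecules of those 3 GABA genes and none of Slc17a6 or Slc17a7. The 10 genes of these rules are described below without a test, because they chose the cells.

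All 4 libraries came from tissue punches of wildtype male C57BL/6J mice, 6 mice pooled for each, and no treatment or control group was part of the data. They were made with Drop-seq, in which the RNA of a cell is caught on a barcoded bead and every caught molecule carries a unique molecular identifier (UMI). Libraries 1 to 4 gave 41, 17, 7 and 13 Slc17a6 neurons and 652, 446, 372 and 627 GABAergic neurons. A pool is the unit of replication. The fit below rests on 3 libraries, with the spread estimated across genes. A small p-value therefore does not show that the change of a gene was alike in each pool, and changes on leaving out a library are given for this. Age and single animals are not given in the labels.

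Neurons that release glutamate load it into synaptic vesicles with a vesicular glutamate transporter. Slc17a6 encodes VGLUT2, the transporter typical of the diencephalon and brainstem, and Slc17a7 encodes VGLUT1, typical of the cortex. GABA neurons instead make GABA with the enzymes encoded by Gad1 and Gad2 and load it with the product of Slc32a1. Most BNST neurons are GABAergic, and VGLUT2 neurons are a known minority there that send excitatory fibres to midbrain and hypothalamic targets.

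Slc17a6 (chromosome 7, 51622006 to 51671119, plus strand, GRCm38) had 233, 76, 40 and 44 UMIs in the class in libraries 1 to 4. As counts per 1000000 UMIs of the class in a library (CPM), these were 857, 998, 961 and 930, or 937 ± 59.7 (SD, n = 4). Slc17a7 was listed in 1 of the 4 libraries, with 8 UMIs in 7 barcodes, and 1 of the 78 cells had a UMI of it, so the class is in effect one of Slc17a6. A comparison of Slc17a7 cells with Slc17a6 cells could therefore not be made. Gad1 and Slc32a1 had no UMI in the class, as against 681 ± 75.7 and 481 ± 48.1 CPM in GABAergic neurons. Gad2 had 7 UMIs, 1 in each of 7 cells, and 13.2 ± 9.38 CPM, against 2154 ± 176 CPM. The label of the class thus held for the genes that define it, by construction.

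Many cells lay near the limits of the rule, beside a class of 78. In all, 13 cells had exactly 2 UMIs of the transporter genes, 18 had 3, and 47 had at least 4, up to 13. Just outside were 20 neurons with 1 such UMI and at most 1 GABA UMI, of which 10 had a UMI of Nrn1, a gene put forward as a marker of the class. Of the 13 cells at exactly 2 UMIs, 4 had Nrn1. A further 24 neurons held at least 2 UMIs of both kinds and entered neither class, and 17 of these had Nrn1, at a median of 5594.5 UMIs per cell. On the neuron score, 8 of the 78 cells were under 0.8%, and 3 barcodes between 0.4% and 0.6% met every other condition. The class held 393 of the 610 Slc17a6 UMIs of kept barcodes (64.4%).

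Depth differed between the classes. The median Slc17a6 neuron had 4915.5 UMIs from 2593 genes, and the median GABAergic neuron 3534 UMIs from 2050 genes. In libraries 1 to 4 the medians were 6544, 4431, 5565 and 3644 UMIs in Slc17a6 neurons, and 4669, 3778, 3139 and 2647 in GABAergic neurons. All Slc17a6 neurons together gave 436949 UMIs, so that 3 UMIs, the most that a count of 0 allows, stood for 6.87 CPM over the class. No kept barcode sequence was shared between libraries, although 26 were shared over all barcodes. Doublets were not removed. A doublet caller, Scrublet, marked 58 of the kept barcodes (1.37%), 4 of them Slc17a6 neurons, and values without these calls are given where they change a result. Slc17a6 neurons were 5.14%, 3.35%, 1.62% and 1.72% of the neurons in libraries 1 to 4 (2.96% ± 1.66; SD, n = 4). By number of cells, library 1 alone held more of them than the other libraries together, and it also held the most neurons (797).

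The genes put forward as markers of the class were Nrn1, Bdnf, Otp and Nhlh2, and since results of these data led to that choice they are given as a description. Nrn1 encodes neuritin, an extracellular protein that promotes neurite growth and synapse maturation. It had 327, 328, 144 and 211 CPM in Slc17a6 neurons and 0, 0, 6.93 and 2.63 CPM in GABAergic neurons of libraries 1 to 4. The groups did not overlap, and 50 of 78 cells had a UMI (64.1%; exact 95% interval 52.4% to 74.7%), as against 0.334% of GABAergic neurons. Cells rich in oligodendrocyte genes, which should lack these markers, gave the background of shares: 0.423% of 945 such cells had Nrn1, at a median of 1391 UMIs. Nrn1 overlaps Fars2 on the other strand, and the strand of counting is not known, so its reads cannot be fully assigned.

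Bdnf, the neurotrophin that signals through TrkB, had 213, 65.6, 168 and 127 CPM in Slc17a6 neurons, in 25 of 78 cells. In GABAergic neurons it ran from 7.14 to 10.4 CPM, in 2.00% of cells, against 0.106% of the cells rich in oligodendrocyte genes. Otp (chromosome 13, 94875602 to 94885130, plus strand) encodes a homeodomain factor that specifies hypothalamic neuroendocrine and medial amygdala neurons. It stood at 114, 118, 120 and 42.3 CPM, in 21 cells, and had 2 UMIs in all GABAergic neurons. The pooled ratio was 466-fold, with a counting interval of 122 to 3959. Nhlh2 (chromosome 3, 102010076 to 102015492, plus strand), a bHLH factor of hypothalamic neurons, had 66.2, 39.4, 48.1 and 127 CPM in 18 cells and no UMI in any GABAergic neuron, at least 192-fold higher against a floor of 3 UMIs over the GABAergic class. All these markers were higher in Slc17a6 neurons in 4 of 4 libraries.

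**Figure D1:**
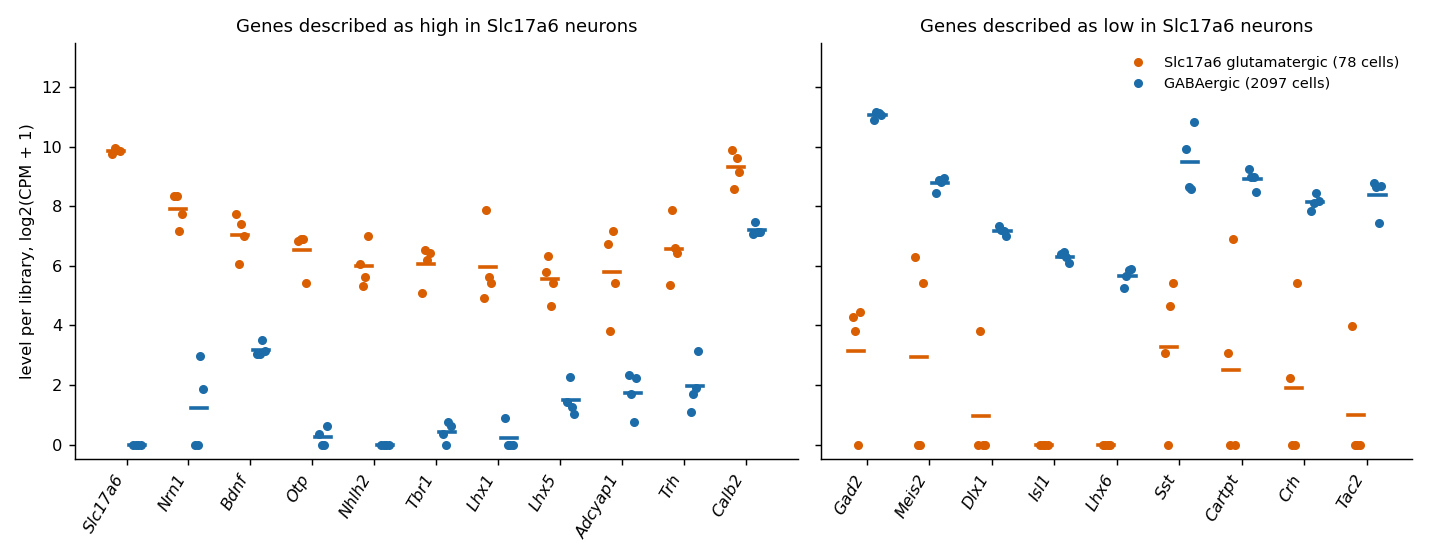
Level of 20 genes in each library, as log2(CPM + 1), with 1 point per library (n = 4) and a bar at the mean of the points, for Slc17a6 glutamatergic neurons (orange, 78 cells) and GABAergic neurons (blue, 2097 cells). Slc17a6 and Gad2 chose the cells; Nrn1, Otp and Nhlh2 lie above the blue points in every library, and Isl1 and Lhx6 lie at 0 in Slc17a6 neurons of every library.

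To ask how far the classes differ beyond the rule, the UMIs of each class were added up within a library, and these sums entered edgeR's quasi-likelihood test with the library as a block. Library 3 held fewer than the 10 cells required and stayed out of the fit, so libraries 1, 2 and 4 entered it, and the levels of library 3 are printed beside them. Of 9942 genes tested outside the rule, 196 passed a Benjamini-Hochberg adjusted p of 0.05 (1.97%). Of these, 87 were higher in Slc17a6 neurons (0.875%) and 109 lower (1.1%), and 176 moved the same way in all 3 libraries of the fit. At an unadjusted p under 0.05 there were 897 (9.02%). In all 4 libraries the Slc17a6 sums lay above every GABAergic sum for 254 genes (2.55%) and below every one for 528 (5.31%). DESeq2 called 66 genes, 58 of them among the 196. Without library 1, which holds the most Slc17a6 neurons, edgeR called 98 genes, 39 higher and 59 lower, and without library 2 or library 4 the lower genes were 70 and 68. With library 3 added there were 238, 183 of them among the 196. Of the 64 genes named here that passed, 16 also passed under all 17 alternatives, and 11 passed in each of the 9 to 16 alternatives that tested them. With DESeq2, 36 did not pass.

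**Figure D2:**
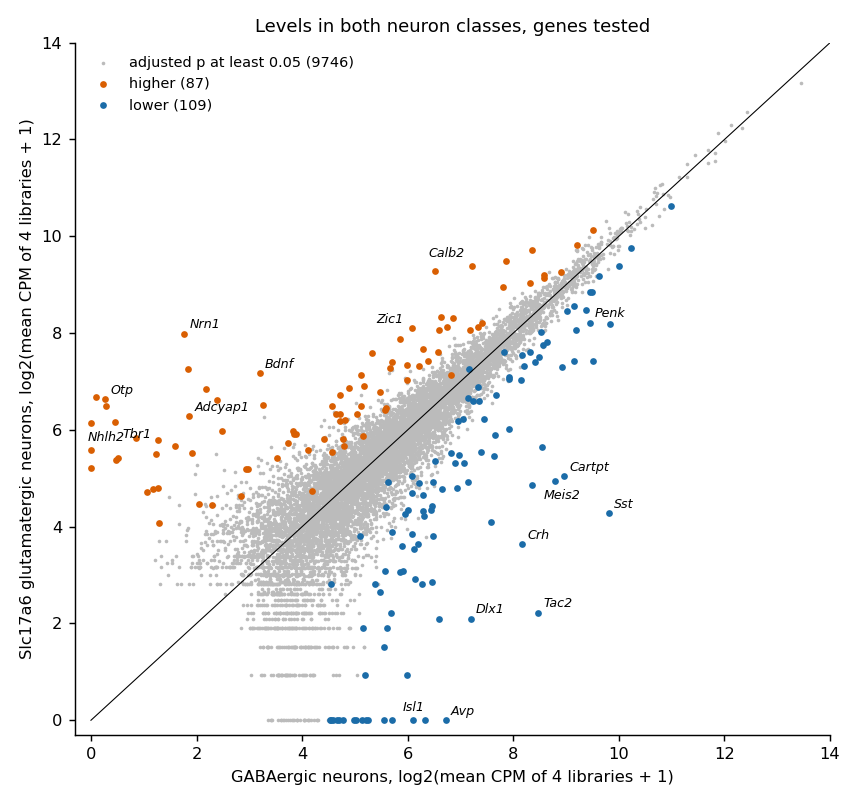
Mean level over 4 libraries of each of the 9942 genes tested, as log2(mean CPM + 1), in GABAergic neurons (x axis) against Slc17a6 glutamatergic neurons (y axis); orange points are the 87 genes higher and blue points the 109 lower at an adjusted p of 0.05, and the line marks equal levels. Otp, Nhlh2, Nrn1 and Tbr1 lie far above the line, and Sst, Tac2, Crh and Avp far below it.

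Of the 12 largest rises, 6 were transcription factors of a list of glutamatergic lineages and brain regions, which held 11 of the 9942 genes tested. Otp and Nhlh2, given as markers, were among the 6. The list was written with earlier results of these data known, so the count is a description only. Tbr1 (chromosome 2, 61802930 to 61814114, plus strand), a T-box factor of glutamatergic neurons of the pallium, had 33.1, 91.9, 72.1 and 84.5 CPM in libraries 1 to 4. GABAergic neurons had 3 Tbr1 UMIs in all and at most 0.693 CPM in a library. The log2 fold change was 7.23 (SE 0.96; edgeR adjusted p = 1.5e-11), and the pooled ratio was 152-fold, with a counting interval of 45.9 to 791. Tbr1 was found in 17 of 78 Slc17a6 neurons, 0.143% of GABAergic neurons and none of the 945 cells rich in oligodendrocyte genes, a count that allows up to 0.317%.

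Lhx1 (chromosome 11, 84518284 to 84525535, minus strand), a LIM homeodomain factor of developing diencephalic and spinal neurons, had 29.4, 236, 48.1 and 42.3 CPM, with library 2 standing high. Its log2 fold change was 7.14 (SE 0.81; edgeR adjusted p = 6.0e-16), from 30 UMIs in 16 Slc17a6 neurons and 3 UMIs in GABAergic neurons (pooled ratio 198; counting interval 61.6 to 1015). Lhx5, its close relative, needed for patterning of the ventral forebrain, was at 55.2, 78.8, 24.0 and 42.3 CPM and rose by 4.66 (SE 0.70; edgeR adjusted p = 4.9e-09). Lhx5 was in 18 of 78 Slc17a6 neurons and in 0.715% of GABAergic neurons. For both genes every Slc17a6 sum lay above every GABAergic sum.

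Sim1, a bHLH-PAS factor of the paraventricular hypothalamus and related nuclei, had 15 UMIs in 9 Slc17a6 neurons and none in GABAergic neurons. It stood at 29.4, 52.5, 0 and 63.4 CPM, and the pooled level was at least 99.1-fold higher. Fezf1, a zinc-finger factor of the rostral forebrain and hypothalamus, was at 77.2 and 84.5 CPM in libraries 1 and 4 and at 0 in libraries 2 and 3, and thus did not move the same way in every library. Ebf2, a helix-loop-helix factor, was likewise at 0 in library 4 and passed with edgeR (log2 fold change 5.75) but not with DESeq2 (adjusted p = 0.72). The rise of Tcf7l2, a Wnt pathway factor and a marker of thalamic neurons, rested on 6 cells: its levels were 22.1, 65.6, 457 and 63.4 CPM, and 16 of its 19 UMIs in library 3 came from 1 cell. Tcf7l2 was also in 4.34% of cells rich in oligodendrocyte genes.

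In all, 9 of the list's 36 factors were past the threshold and higher, and none was lower. Only 11 of them passed the filter on low counts, several only through the Slc17a6 sums, so that this count only describes them. The median log2 fold change of those 11 was 7.14, against -0.08 over all genes tested, or 6.63 and -0.02 as pooled ratios with zero counts at the floor. The other tested factors were Zfhx4 (0.41, edgeR adjusted p = 0.77) and Nr4a2 (0.10, edgeR adjusted p = 0.99). Among the 25 not tested, Neurod2 and Lhx9 each had 12 UMIs in Slc17a6 neurons and none in GABAergic neurons, at least 79.3-fold higher. Neurod2, a bHLH factor of pallial glutamatergic neurons, was in 6 cells, and Lhx9, a LIM homeodomain factor, in 8. Uncx, a homeodomain factor, had 9 UMIs in 6 cells, and Neurod6 had 4 UMIs in 3 cells.

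Other large rises lay outside these factors. The transcript 1500016L03Rik, whose name was not found in the annotation used here, had 62.5, 276, 24.0 and 42.3 CPM in Slc17a6 neurons and 1 UMI in all GABAergic neurons (log2 fold change 8.74; SE 0.79; edgeR adjusted p = 1.7e-25). The pooled ratio was 813, with a counting interval of 138 to 32871. Mab21l1, a nuclear protein of eye and brain development, ran from 21.1 to 65.6 CPM against at most 1.39, and overlaps Nbea on the other strand. Adamts2, a procollagen protease, had 22.1, 26.3, 24.0 and 106 CPM, and 2.54% of cells rich in oligodendrocyte genes also had a UMI. C1ql1, a secreted C1q-related protein that acts at excitatory synapses and is also a gene of oligodendrocyte precursors, had 16 UMIs in 6 cells. Pdgfra, Cspg4, Olig1, Olig2 and Gpr17, the other precursor genes listed, did not pass the filter on low counts, and the list of 6 summed to 24.0 to 106 CPM in Slc17a6 neurons and 3.31 to 36.7 CPM in GABAergic neurons.

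Of 30 transcription factors of subpallial GABAergic neurons, 29 were tested. With edgeR 14 passed and were lower and 1 was higher, against 1.1% and 0.875% of all genes tested. The median log2 fold change was -2.91, or -1.87 as a pooled ratio with zero counts at the floor. With DESeq2, 6 genes of the list passed, in either direction. Factors with no UMI in Slc17a6 neurons passed the filter on low counts only through the GABAergic sums. These counts thus only describe the list. Dlx1, a homeodomain factor that drives GABAergic identity in the ventral forebrain, stood at 160, 148, 145 and 128 CPM in GABAergic neurons and had 1 UMI in Slc17a6 neurons, in library 2. The ratio of GABAergic to Slc17a6 neurons was 64.6 (counting interval 11.6 to 2553; edgeR log2 fold change -5.91, SE 0.64, adjusted p = 1.7e-17). Isl1, a LIM homeodomain factor of striatal and BNST neurons, ran from 67.3 to 87.7 CPM in GABAergic neurons and had no UMI in Slc17a6 neurons, at least 11.6-fold lower. Both Dlx1 and Isl1 were lower in 4 of 4 libraries.

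Dlx5, Dlx6os1, Lhx6, Lhx8, Dlx2 and Sp9 also had no UMI in Slc17a6 neurons, with lower bounds between 3.20-fold and 7.0-fold. Dlx6 had 1 UMI, in library 3 (ratio 33.1; counting interval 5.92 to 1309), and it shares its locus with Dlx6os1 on the other strand. Six3, a homeodomain factor of the ventral forebrain, had 3 UMIs against 736 (ratio 12.4; counting interval 4.22 to 60.2). Meis2, a TALE homeodomain factor of striatal-type neurons, stood at 77.2, 0, 0 and 42.3 CPM against 352 to 489, and fell by 2.91 on the log2 scale (SE 0.27; edgeR adjusted p = 1.9e-24). Its 23 UMIs lay in 4 of 78 cells. Foxp2, with 2 UMIs against 565 (ratio 14.3; counting interval 3.93 to 118), and Pbx3 (-2.05) were the other factors that fell.

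The calls of Dlx2, Dlx5, Dlx6os1, Lhx6, Lhx8, Sp9, Foxp2 and Pbx3 ended when library 1 was left out, with edgeR adjusted p between 0.12 and 0.87. The log2 fold change of Foxp2 then went from -3.44 to -1.87 and that of Pbx3 from -2.05 to -0.87, while the 6 others stayed at 0 UMIs in Slc17a6 neurons. Without library 2 the value of Pbx3 was -3.28, and without library 1 that of Meis2 was -4.99. Those of Dlx2 and Sp9 ended without library 2 or library 4 as well. Zic1 was the one factor of this list that rose. It encodes a zinc-finger factor of the septum and medial forebrain, stood at 125, 197, 457 and 317 CPM against 35.4 to 98.8, and had a log2 fold change of 1.71 (SE 0.27; edgeR adjusted p = 6.5e-08). Zic4, which overlaps it on the other strand, had 1.74 (edgeR adjusted p = 0.065).

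Genes that supply, load or take up glutamate and GABA showed few differences between the classes beyond the rule. Of 12 glutamate genes 1 passed and was lower: Slc17a8, the gene of VGLUT3, a transporter found in neurons that release another transmitter too. It ran from 25.7 to 90.7 CPM in GABAergic neurons and had 1 UMI in Slc17a6 neurons (ratio 23.7; counting interval 4.24 to 939; edgeR adjusted p = 8.9e-04). Without library 2 its edgeR adjusted p was 0.058, and with DESeq2 its adjusted p was 0.35. None of 7 tested genes of GABA handling passed with edgeR or with DESeq2, 1 of them being under an unadjusted p of 0.05 with edgeR. The median log2 fold changes were -0.13 for the glutamate list and -0.17 for the GABA list, against -0.08 over all genes.

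Of 35 neuropeptide genes, 21 were tested. With edgeR 14 passed and were lower and 2 were higher, against 1.1% and 0.875% of all genes tested. The median log2 fold change was -1.38, or -1.54 as a pooled ratio with zero counts at the floor. With DESeq2, 7 genes of the list passed, in either direction. Genes with no UMI in Slc17a6 neurons, such as Avp, passed the filter on low counts only through the GABAergic sums. These counts thus only describe the list. The rises were Adcyap1 and Trh. Adcyap1 encodes PACAP, a peptide of stress circuits, and had 107, 13.1, 144 and 42.3 CPM against 0.693 to 4.00 in GABAergic neurons (log2 fold change 4.19; SE 0.59; edgeR adjusted p = 4.7e-10). A UMI of Adcyap1 was found in 19 of 78 cells and in 0.715% of GABAergic neurons. Trh, the gene of thyrotropin-releasing hormone, had 40.5, 236, 96.1 and 84.5 CPM against 1.14 to 7.88 (log2 fold change 4.96; SE 0.56; edgeR adjusted p = 6.6e-16). Its 37 UMIs lay in 7 cells, up to 15 in 1 cell. The change of Trh was 4.11 without library 2 and 5.96 without library 4. Both peptides were higher in 4 of 4 libraries with no overlap.

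Sst, the somatostatin gene, showed a large fall. It had 975, 406, 384 and 1816 CPM in GABAergic neurons and 7.36, 0, 24.0 and 42.3 CPM in Slc17a6 neurons (log2 fold change -6.62; SE 0.34; edgeR adjusted p = 4.3e-79). Cartpt, the gene of the CART peptide, was at 354 to 604 CPM against 7.36, 0, 120 and 0 (-6.81). Library 3, at 120 CPM, was outside the fit, and over 17 alternatives the change of Cartpt ran from -12.2 to -5.10. Tac2, the gene of neurokinin B, was at 175 to 443 CPM against 4 UMIs in library 1 and none elsewhere (-5.47). Without library 1 the fitted Slc17a6 sums of both genes held no UMI, and the changes were -11.8 for Cartpt and -11.6 for Tac2. Crh, the gene of corticotropin-releasing hormone, had 231 to 345 CPM against 3 UMIs (ratio 39.7; counting interval 13.6 to 192). In each of these the groups were fully apart. Avp, the vasopressin gene, had no UMI in Slc17a6 neurons and 21.5 to 199 CPM in GABAergic neurons, at least 16.1-fold lower; this call was lost with DESeq2 and without the block (adjusted p = 0.051).

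Other peptides were lower but present. Penk, the proenkephalin gene, was at 320, 617, 96.1 and 148 CPM against 559 to 930 (log2 fold change -0.97; edgeR adjusted p = 2.9e-06), and was found in 24 of 78 cells (30.8%) and 31.3% of GABAergic neurons; without library 4 the change was -0.58 (adjusted p = 0.17). Nts, the neurotensin gene, and Vgf, the gene of a granule peptide precursor, fell by 2.83 and 2.33 on the log2 scale, and without library 1 the changes were -4.71 and -4.56. Gal, the galanin gene, was higher in Slc17a6 neurons of library 3 alone (481 against 86.6 CPM), and its call (-1.26) was lost with library 3 in the fit (-0.57, adjusted p = 0.22) and without library 2 (-0.81, adjusted p = 0.19), and was -2.09 without library 1. Npy, the neuropeptide Y gene, had 814 CPM in library 2 and 0 in library 4, with 92 UMIs in 5 cells, against a mean of 579 CPM in GABAergic neurons. It was higher in Slc17a6 neurons in 1 library of the fit, library 2, and its change was -1.38. Without library 1 it was -0.31 (adjusted p = 0.84), without library 2 -3.48 and without library 4 -0.78. Tac1 (-0.90), Cck (-1.39) and Pdyn, with 2 UMIs (ratio 9.89, counting interval 2.72 to 81.9), were further falls that ended without at least 1 library. For Tac1 this was without library 2 (-0.50, adjusted p = 0.55) or library 4 (-0.69, adjusted p = 0.15), against -3.50 without library 1. For Cck (-0.61, adjusted p = 0.79) and Pdyn (adjusted p = 0.16) it was without library 1. Tac1 was higher in Slc17a6 neurons in library 3, outside the fit.

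The gene of prepronociceptin, Pnoc, on which the series centres, was present in Slc17a6 neurons. It had 55.2, 210, 96.1 and 21.1 CPM against 173, 151, 133 and 140 CPM in GABAergic neurons, so that library 2 went the other way. A UMI was found in 13 of 78 Slc17a6 neurons (16.7%; interval 9.18% to 26.8%), 449 GABAergic neurons (21.4%) and 2 cells rich in oligodendrocyte genes (0.212%). Its log2 fold change was -1.0 (SE 0.28; edgeR adjusted p = 0.022), which became -0.26 without library 1 (adjusted p = 0.98) and -0.79 without library 4 (adjusted p = 0.23), and which was -1.80 without library 2. In all, Pnoc did not pass in 10 of 17 alternatives. With the Scrublet calls removed it was at -0.92 (adjusted p = 0.058), and with neuron genes at no less than 1% of UMIs at -0.53 (adjusted p = 0.70). Oprl1, the gene of the nociceptin receptor, was in 22 cells (28.2%) against 19.9% of GABAergic neurons, with 93.8 ± 34.4 and 61.2 ± 9.80 CPM, and did not pass (log2 fold change 0.30; SE 0.34; edgeR adjusted p = 0.90).

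Synaptic organisers and receptors differed in few genes. Of the 14 tested genes of the list of trophic factors, 4 were higher and none lower; besides Nrn1 and Bdnf, already described, these were Cbln1 and Cbln2, secreted proteins that join presynaptic neurexins to postsynaptic partners. Cbln2 had 103, 91.9, 192 and 380 CPM against 15.2 to 61.2 (log2 fold change 1.65; edgeR adjusted p = 6.7e-06), and 0.88 without library 4 (adjusted p = 0.28) and 2.41 without library 1. With neuron genes at no less than 1% of UMIs the change of Cbln2 was 0.30 (adjusted p = 0.95). Cbln1 had 40.5, 0, 0 and 169 CPM against 4.28 to 18.7, was higher in 2 of 4 libraries, and its call ended without library 1 (2.26, adjusted p = 0.31). Ntrk2, the receptor of the Bdnf product, was not past the threshold (-0.50; edgeR adjusted p = 0.24). With DESeq2, 2 genes of this list passed.

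Of 15 tested ionotropic glutamate receptor subunits, 2 fell: Grik3, a kainate receptor subunit with 1 UMI against 328 (ratio 16.5; counting interval 2.95 to 656), whose call ended without library 1 (adjusted p = 0.38), and Gria1, an AMPA receptor subunit (-0.66; edgeR adjusted p = 0.028), whose call ended without any 1 of the libraries fitted (adjusted p = 0.11 to 0.49). Of 25 tested hormone and peptide receptors 1 rose, the galanin receptor gene Galr1 (2.04; edgeR adjusted p = 0.0056), with 22 UMIs in 12 cells. Its call ended without library 1 (1.75, adjusted p = 0.72). With DESeq2, 0 genes of either receptor list passed.

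Calb2 (chromosome 8, 110137502 to 110168210, minus strand) was the clearest of the calcium-binding genes. It encodes calretinin, a calcium buffer found in subsets of forebrain neurons. Its levels were 945, 381, 793 and 571 CPM in Slc17a6 neurons and 135, 175, 141 and 141 CPM in GABAergic neurons, fully apart (log2 fold change 2.08; SE 0.18; edgeR adjusted p = 1.3e-26). A UMI was found in 56 of 78 Slc17a6 neurons (71.8%; interval 60.5% to 81.4%), 23.2% of GABAergic neurons and 0.847% of cells rich in oligodendrocyte genes. Without library 1 the change was 1.40. At a depth of 1000 UMIs per cell, which 75 Slc17a6 and 1920 GABAergic neurons reached, the shares were 40.3% ± 8.42 and 10.5% ± 1.43, higher in 4 of 4 libraries. This difference had the smallest p that a two-sided sign-flip permutation of 4 values can give (exact p = 0.12, and 0.163 adjusted over 13 genes). Ncald, the gene of the calcium sensor neurocalcin delta, was higher (0.76; edgeR adjusted p = 3.6e-04), except in library 3, and its call ended without library 1 (0.68, adjusted p = 0.12). Ppp1r1b, the gene of DARPP-32, a phosphatase regulator of striatal neurons, had 2 UMIs against 738 (ratio 18.6; counting interval 5.14 to 154; edgeR adjusted p = 1.9e-07). In all, 2 of the 16 genes of this list rose and 1 fell.

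Of 12 tested immediate early genes, which mark recent activity or the stress of dissociation, 2 fell and none rose. Junb was at 18.4, 13.1, 24.0 and 21.1 CPM against 57.1 to 104 (-2.0; edgeR adjusted p = 0.0034), and Npas4 had no UMI against 267. The Junb call ended without library 1 (adjusted p = 0.11) or library 2 (adjusted p = 0.055), and that of Npas4 without any 1 of the fitted libraries (adjusted p = 0.12 to 0.43). Fos was not past the threshold (-0.63; edgeR adjusted p = 0.74). With DESeq2, 0 immediate early genes of the list passed. The remaining genes among the 12 largest falls were Sox1, a transcription factor of neural progenitors and striatal-type neurons, Ramp3, which modifies peptide receptors, and Prkcd, the gene of protein kinase C delta, a marker of lateral central amygdala and oval BNST neurons. All 3 had no UMI in Slc17a6 neurons, at least 4.64-fold, 3.31-fold and 4.17-fold lower, and their calls ended without library 1 (adjusted p = 0.28 to 0.62).

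Oligodendrocyte genes were uneven between libraries and cells. Of 7 tested myelin genes, 6 were past the threshold and higher with edgeR and 0 with DESeq2. Among them were Mbp (log2 fold change 0.87), Mobp (1.68), Cnp (1.58), Cldn11 (2.28) and Ermn (2.62), all parts of myelin or of the cells that make it. Mbp, the gene of myelin basic protein, had 217, 78.8, 96.1 and 169 CPM in Slc17a6 neurons and 80.0, 85.0, 161 and 124 CPM in GABAergic neurons, and so was higher in libraries 1 and 4 alone. In library 1, 3 Slc17a6 neurons had at least 2% of their UMIs from oligodendrocyte genes, and all 3 were also Scrublet calls. Leaving out neurons of this kind, an alternative chosen after seeing the data, lowers these genes by construction, so its values only describe them: Mbp was then at 0.14, Mobp at 0.92, Cnp at 1.16 and Ermn at 0.61. Of the 196 genes, 173 still passed. With the Scrublet calls removed, Mbp was at -0.17, Mobp at -0.70 and Cnp at -0.42. The myelin list summed to 168 to 2042 CPM in Slc17a6 neurons and 259 to 1342 in GABAergic neurons.

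Markers of other cells were low. The 8 astrocyte genes summed to 168 to 302 CPM in Slc17a6 neurons and 145 to 242 in GABAergic neurons, with Aqp4, Gja1 and Gfap at 0 in the former. Of 8 microglia genes 1 had a UMI, with C1qa and Cx3cr1 at 0, and the sum was 0 to 52.5 CPM against 14.3 to 21. Of 8 vascular genes 4 had a UMI, with Cldn5 at 0 (0 to 52.5 against 25.6 to 39.4 CPM), and of 5 ependymal genes 2 did (0 to 7.36 against 3.43 to 11.8 CPM). Cholinergic genes summed to 26.3 to 84.5 CPM against 65.1 to 99.1, and monoaminergic genes to 0 to 84.5 against 62.3 to 104, with Th and Slc6a3 at 0. Only 6 of the 41 genes of these 6 lists were tested with edgeR. None of the 6 passed with edgeR or with DESeq2, and 1, in the monoaminergic list, was under an unadjusted p of 0.05 with edgeR.

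The Slc17a6 neurons were not uniform in their transcription factors. Of the glutamatergic lineage list, 7 factors were found in at least 10 cells: Zfhx4 in 26, Otp in 21, Nhlh2 and Lhx5 in 18 each, Tbr1 in 17, Lhx1 in 16 and Fezf1 in 13. At least 1 of them was found in 62 of the 78 cells. Sparse counts miss many factors in a cell, so co-detection is given as counts of cells, with no test. Otp shared no cell with Tbr1 and none with Lhx1. Tbr1 and Lhx1 shared 11 cells, of 17 and 16. Zfhx4, a large zinc-finger homeodomain factor, was in 10 of the 17 Tbr1 cells and 11 of the 16 Lhx1 cells, but in 4 of the 21 Otp cells. Fezf1 shared 6 cells with Otp, 1 with Tbr1 and none with Lhx1. Nhlh2 and Lhx5 shared 8 cells and were found beside each of the others.

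**Figure D3:**
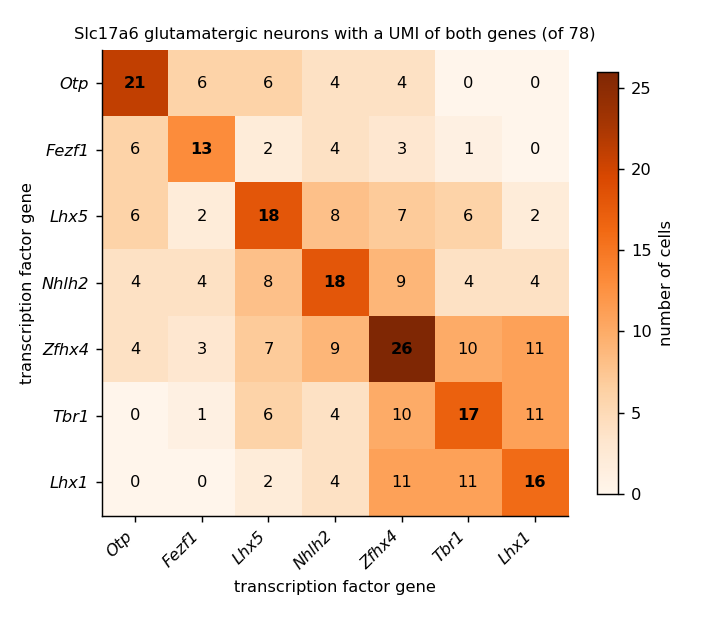
Number of Slc17a6 glutamatergic neurons, of 78, with a UMI of both the row gene and the column gene; bold numbers on the diagonal give the cells with that gene. Otp shares 0 cells with Tbr1 and with Lhx1, whereas Tbr1 and Lhx1 share 11.

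After these counts were seen, the cells were set out by the 3 genes, with no test. Otp was found in 21 cells, Tbr1 or Lhx1 in 22, none of the 3 in 35, and both kinds in 0. The Otp cells came as 14, 4, 2 and 1 from libraries 1 to 4, the Tbr1 or Lhx1 cells as 6, 10, 3 and 3, and the others as 21, 3, 2 and 9. Median depths were 7338, 4595 and 4730 UMIs per cell. Library and depth thus differed between these sets, and their part in the patterns below was not tested. A cell without a UMI may still hold the RNA, above all among the 35.

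**Figure D4:**
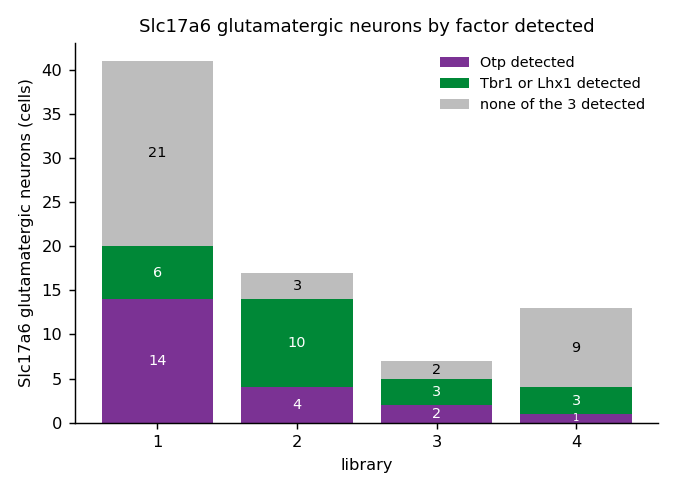
Slc17a6 glutamatergic neurons in each library (bars, number of cells), stacked by whether a UMI of Otp (purple), of Tbr1 or Lhx1 (green) or of none of the 3 (grey) was found. Library 1 holds 14 of the 21 Otp cells, and library 2 holds 10 of the 22 Tbr1 or Lhx1 cells.

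Genes outside the 3 were uneven between the sets; they were picked after the values were seen. Calb1, the gene of the calcium buffer calbindin, was in 16 of 21 Otp cells and 4 of 22 Tbr1 or Lhx1 cells, at 622 and 71.2 CPM. The same held within library 1 (698 against 107 CPM) and library 2 (367 against 44.1 CPM). Over the whole class Calb1 was not past the threshold against GABAergic neurons (log2 fold change -0.40; edgeR adjusted p = 0.52). In the 35 other cells Calb1 was in 12.

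Several peptides of the class were uneven between the sets as well, in UMIs or in cells. All Trh UMIs but 5 lay in Otp cells, 32 of 37 in 5 cells, and none was in a Tbr1 or Lhx1 cell. Sim1 was in 7 Otp cells, no Tbr1 or Lhx1 cell and 2 others. Gal had 63 of its 70 UMIs in 6 Otp cells, with up to 27 in 1 cell, and Adcyap1 was in 9 Otp cells, 2 Tbr1 or Lhx1 cells and 8 others. Conversely, 1500016L03Rik was in 12 Tbr1 or Lhx1 cells and no Otp cell, Mab21l1 in 11 and none, and Npy had 86 of 92 UMIs in 4 Tbr1 or Lhx1 cells and none in Otp cells. Pnoc was in 8 of the 22 Tbr1 or Lhx1 cells, 3 of the 21 Otp cells and 2 others. Tac1 had 93 of its 107 UMIs in cells with none of the 3 genes, up to 36 in 1 cell. By cells Tac1 was not split in this way: it was in 6 of these 35 cells, 4 of the 21 Otp cells and 1 Tbr1 or Lhx1 cell. All 21 Nts UMIs lay in 4 cells with none of the 3 genes, 17 of them in 1 cell.

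**Figure D5:**
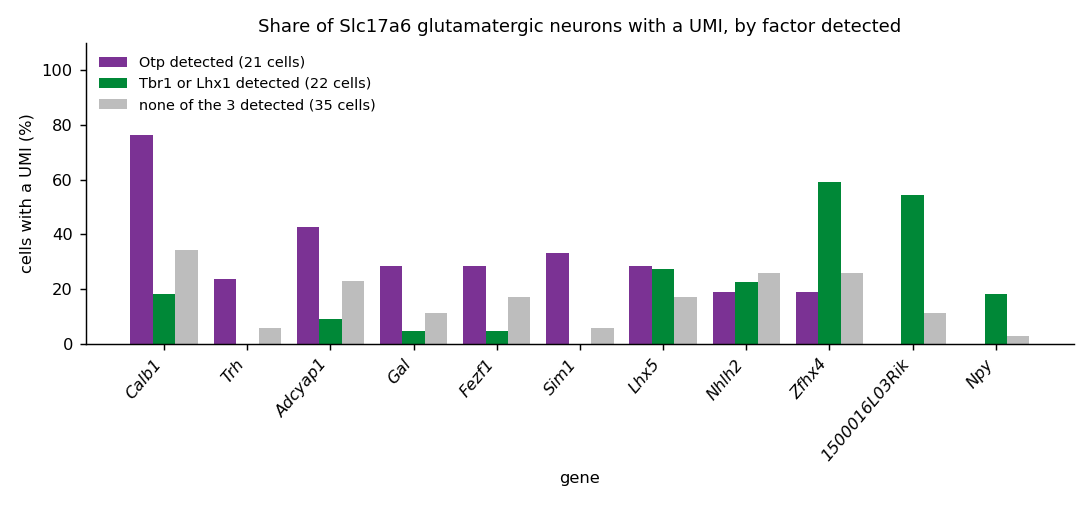
Share of Slc17a6 glutamatergic neurons with a UMI of each of 11 genes (bars, percent of cells), for cells with Otp (purple, 21), with Tbr1 or Lhx1 (green, 22) and with none of the 3 (grey, 35). Calb1 is highest in Otp cells (16 of 21), and 1500016L03Rik is found in 12 of the 22 Tbr1 or Lhx1 cells and in no Otp cell.

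Other genes were found in all 3 sets. Nrn1 was in 13 of 21 Otp cells, 16 of 22 Tbr1 or Lhx1 cells and 21 of 35 others, and Calb2 in 18, 14 and 24. Bdnf was in 10, 6 and 9, at 278, 80.1 and 144 CPM, and Nhlh2 in 4, 5 and 9. Slc17a6 itself was at 827, 1006 and 893 CPM in the 3 sets. Oprl1 was in 8, 5 and 9 cells.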

How the data were processed

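Each library's deposited table holds raw UMI counts per gene and barcode, per the file headers and values. STAR 2.4.2a, Picard 2.2.4 and bcl2fastq 2.18.0.12, with builds mm10 and GRCm38, are named in the submitters' processing notes, without roles. The annotation, the strand of counting and the choice of barcodes are not given in the sources used here. Positions are from GENCODE vM21 (GRCm38), in which 18830 of 20136 gene names and 74 of 75 named genes were found; opposite-strand overlap makes a count uncertain. In all, 4 of the 78 cells had a barcode ending in an undetermined base.

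The cells, gene lists and tests were chosen with earlier results of these data known. Each class's counts were added up within a library with at least 10 Slc17a6 neurons. The sums were fitted by quasi-likelihood in edgeR 4.0.16 (R 4.3.3) with the library as a block, after filterByExpr and TMM scaling. A standard error is the absolute log2 fold change divided by the root of its F statistic. The block follows from the design, since both sums come from the same mice and library; the deviations of paired sums correlated at 0.0990, 0.0804 and 0.133 in libraries 1, 2 and 4. Fits were tested on simulated data. DESeq2 1.42.0 was an alternative; others changed size factors, low-count filter, block, cell filters, class limits and doublet removal, or left out a library.

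Named genes were the 12 that rose and the 12 that fell furthest among those past an adjusted p of 0.05 with at least 20 UMIs that moved the same way in every fitted library; the rule genes and given markers; the genes of the lists given past the threshold; Pnoc and Oprl1; and factors found in at least 10 cells. Results of some genes are not reported here. CPM is the UMIs of a gene per 1000000 UMIs of the class in a library. Intervals are at 95% (exact Clopper-Pearson for shares) and, like the floor of 3 counts, cover counting error only. Shares at fixed depth are the mean chance that 1000 drawn UMIs include the gene. Cells rich in oligodendrocyte genes had at least 2% of UMIs from a set of myelin genes and failed the neuron score. Scrublet (scanpy 1.11.5) assumed a doublet rate of 0.05. Tables and plots were made with pandas 2.3.3, numpy 2.4.6, matplotlib 3.10.9 and scipy 1.17.1 under Python 3.11.15. Clusters were not used, and Slc17a7 cells could not be compared with Slc17a6 cells.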

Additional observations from a re-analysis of the deposited data

Results flagged for a closer look

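In 37 sets of 4 library values of the Slc17a6 neurons, 8 held 1 library far from the others. Chance gives about 1 in 20 sets, but the count of 8 is not read against it, because 3 of these sets (Dlx6, Grik3 and the ependymal genes) rest on 1 or 2 UMIs in all. Library 2 stood high for Lhx1, at 236.3 CPM against 29.4 to 48.1 in the other libraries, and for 1500016L03Rik, at 275.7 CPM against 24.0 to 62.5. Library 4 stood low for Otp, at 42.3 CPM against 114 to 120, and high for Adamts2, at 105.7 CPM against 22.1 to 26.3. Library 3, with 7 cells, stood high for Tcf7l2, at 456.7 CPM against 22.1 to 65.6. It also held the single UMI of Dlx6 and that of Grik3, each 24.0 CPM there and 0 in the other libraries. The ependymal marker genes summed to 7.36 CPM in library 1 and to 0 in the others.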

How the results depend on the processing

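The mean share of Slc17a6 neurons among neurons was 2.23% to 3.41% on leaving out a library. Leaving out 1 of 4 values cannot move their mean by 1 SD, so this range does not test how stable the share is. Single libraries ran from 1.62% to 5.14%. Changed limits on genes, mitochondrial UMIs, neuron score, doublets or oligodendrocyte genes gave means of 2.54% to 3.35%. Against 196 genes past the threshold, refits that left out 1 of the fitted libraries called 98 to 152 genes in all, with 39 to 84 higher and 59 to 70 lower; library 3 was not in the fit, so leaving it out changed nothing. With the pairing of sums by library dropped (no block), 113 genes passed, 54 of them lower, and 18 named genes lost their call. DESeq2 called 66 genes, 49 higher and 17 lower. A neuron score of at least 1% gave 128 genes, 51 of them higher, and 17 named genes lost their call. The cause was not tested. The other alternatives gave 134 to 238 genes.

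Changes of sign were found in 5 genes. With Scrublet calls removed, Mbp had a log2 fold change of -0.17, Mobp of -0.70 and Cnp of -0.42. On leaving out a library Cldn11 ran from -0.36 (without library 1) to 2.86. At no more than 5% mitochondrial UMIs Oprl1, which did not pass, had -0.023. On leaving out library 1, 27 named genes lost their call or changed sign, against 10 without library 2 and 9 without library 4.

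The depth of the class, with 7 to 41 cells per library, limits the low genes: 3 UMIs stood for 11, 39.4, 72.1 and 63.4 CPM in libraries 1 to 4, and lower levels could not be told from 0. Genes at 0 in Slc17a6 neurons carry lower bounds only.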
